A study of Mus musculus with 20 samples.

Results

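The genes described here are 10 interferon-induced genes whose products act directly against viruses or trim the interferon response itself: Ifit1, Ifit2, Ifit3, Isg15, Isg20, Rsad2, Mx1, Mx2, Usp18 and Cmpk2. They were taken by name from the array annotation, and 13 of the 39429 non-control probes carried one of these names, 2 each for Isg15, Isg20 and Cmpk2 and 1 for every other gene. All 10 genes passed the filter on dim probes and were tested among 21963 genes. The arrays compared macrophages grown for 6 days from the bone marrow of C57BL/6 mice, which were stimulated with 200 ng/mL lipopolysaccharide (LPS, from Salmonella) or left untreated for 1, 2, 4, 8 or 16 h in serum-free medium. The cells were wild-type, labelled TRIF -/-, labelled MyD88 -/-, or labelled as lacking both adapters (double-KO), with 1 array for each genotype and time, 20 in all. Each array carried treated and untreated RNA of 1 genotype and time in 2 dyes, so no time zero and no repeat of a time point was available. All genotypes shared the macrophage growth factor supplied as medium conditioned by L929 cells, and the labels do not say whether the time points came from separate animals or cultures.

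LPS is sensed by Toll-like receptor 4, which signals through the adapters MyD88 and TRIF. The TRIF arm activates the transcription factor Irf3 and with it the gene for interferon beta, which is secreted, binds the interferon receptor on the same and neighbouring cells and switches on the antiviral genes through a transcription factor complex that holds Stat2 and Irf9. That complex binds a short DNA motif, the interferon-stimulated response element, in the promoters of its targets. A different motif, the gamma-activated site, is known from promoters of genes induced by interferon gamma.

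Promoter sequence was read from RefSeq (GRCm38.p6) for 7 of the 10 genes, which have 10 annotated start windows between them; Mx1, Mx2 and Usp18 had no entry. The core of the interferon-stimulated response element, spelled GAAANNGAA and searched on both strands in the 250 bases before each start, was found in 4 windows, 1 each of Ifit1, Ifit3, Isg15 and Rsad2. Of all 32851 windows in the table, 7.13% hold it. The core of the gamma-activated site, spelled TTCNNNGAA, which reads the same on both strands, was found in 1 window each of Ifit2 and Isg20 and is held by 7.02% of all windows. No match to one motif overlapped a match to the other. The stretches that hold the first motif are shown because interferon is known to act through this motif. A match of letters does not show that a site is used in these cells. They are written 5′ to 3′ on the strand of the gene, and capitals mark each match on either strand:
Ifit1, chr19:34640745-34640848, plus strand: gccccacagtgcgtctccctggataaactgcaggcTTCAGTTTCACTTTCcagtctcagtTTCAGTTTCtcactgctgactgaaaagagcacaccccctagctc
Ifit3, chr19:34583339-34583470, plus strand: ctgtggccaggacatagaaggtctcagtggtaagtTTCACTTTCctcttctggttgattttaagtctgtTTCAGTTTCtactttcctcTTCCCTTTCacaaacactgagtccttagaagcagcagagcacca
Isg15, chr4:156200841-156200931, minus strand: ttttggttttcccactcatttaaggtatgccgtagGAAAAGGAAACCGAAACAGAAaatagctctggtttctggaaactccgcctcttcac
Rsad2, chr12:26456528-26456606, minus strand: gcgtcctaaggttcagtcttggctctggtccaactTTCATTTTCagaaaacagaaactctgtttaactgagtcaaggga
Ifit1, Ifit3 and Isg15 each hold 3 matches, which begin 66 to 155 bases before the start, and Rsad2 holds 1, which begins 119 bases before it. In Isg15 the 3 matches overlap in 1 run, and in Ifit1 the first pair overlaps. Neither motif was found in the window of Cmpk2, and the first was not found in those of Ifit2 and Isg20. This says only that these letters are not in the 250 bases searched.

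**Figure D1:**
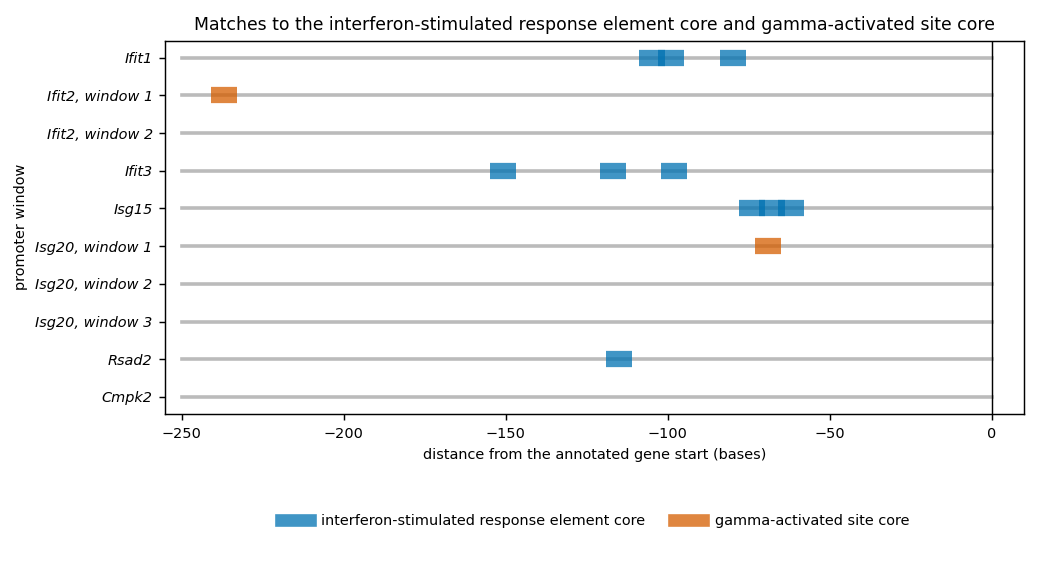
Position of each motif match in the 250 bases before the annotated start of 7 of the genes, 1 line per start window, with the distance from the start in bases on the x axis. The 3 matches of Ifit1, of Ifit3 and of Isg15 and the 1 of Rsad2 (interferon-stimulated response element core) begin within 155 bases of the start, and the gamma-activated site cores of Ifit2 and Isg20 begin 241 and 73 bases before it.

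The share of spots well above background was 57% to 70.5% per array, and all 13 probes of the 10 genes were above background in both channels of all 20 arrays. The LPS-treated spot of the tested Isg15 probe was saturated on 3 arrays (wild-type at 4 and 8 h, MyD88-KO at 4 h) and that of Rsad2 on 2 (MyD88-KO at 4 and 8 h), so these values are lower limits. Ticam1, the gene of TRIF, was at 7.28 ± 0.04 (log2 level, SD, n = 5) in untreated double-KO cells but at 10.81 ± 0.28 in the TRIF -/- cells and 10.65 ± 0.19 in wild-type cells, so the former are called TRIF-KO-labelled here. The Myd88 probe read 14.01 to 14.45 on average in every genotype and so checked the loss of MyD88 neither in the MyD88-KO nor in the double-KO cells, whose names here follow the labels. All 9 macrophage markers were well above background on every array, with a summed level of 19.55 to 20.16. The 8 neutrophil markers summed to 16.69 to 17.04 in MyD88-KO cells and to 15.17 to 15.97 in the other genotypes, and their part in the results below was not tested. Markers of plasmacytoid dendritic cells, which make much interferon, (6 of 6 measured) summed to 17.43 to 18.65 in the wild-type and to 18.09 to 18.79 in the TRIF-KO-labelled samples. They summed to 17.86 to 18.12 in the MyD88-KO and to 17.78 to 18.3 in the double-KO samples. Ly6d was above background on no TRIF-KO-labelled array. The sums add unlogged intensities, so the brightest markers weigh most. Bst2, among these markers, is also counted with the other interferon-induced genes below, so the sums do not measure plasmacytoid cells alone. The part of these markers was not tested either. Markers of conventional dendritic cells, T cells, B cells, NK cells and fibroblasts summed to between 9.02 and 12.61. In these bulk samples, fewer cells that express a gene and less RNA per cell cannot be told apart. All wild-type and TRIF-KO-labelled arrays were scanned on day 1 and all double-KO arrays on day 2, so genotype and scan day cannot be told apart there, while the MyD88-KO arrays of 1 and 2 h were scanned on day 1 and those of 4, 8 and 16 h on day 2.

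The response to LPS was read first as the log2 ratio of treated over untreated RNA on each array. In MyD88-KO cells the 10 genes were strongly higher in treated cells from 4 h on and stayed so to 16 h, in wild-type cells they were higher at 4 h and mostly back to the untreated level by 16 h, in TRIF-KO-labelled cells the 4 h value was smaller, and in double-KO cells the ratio stayed close to 0. The median over the 10 genes was 3.06 at 4 h, 0.80 at 8 h and -0.63 at 16 h in wild-type cells. The same median in MyD88-KO cells was 3.90, 3.63 and 3.65. In TRIF-KO-labelled cells it was 1.23, 0.25 and -1.01, and in double-KO cells -0.24, -0.07 and -0.47. At 16 h the ratio was above 0 for 10 of 10 genes in MyD88-KO, 4 in wild-type, 1 in TRIF-KO-labelled and 0 in double-KO cells.

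**Figure D2:**
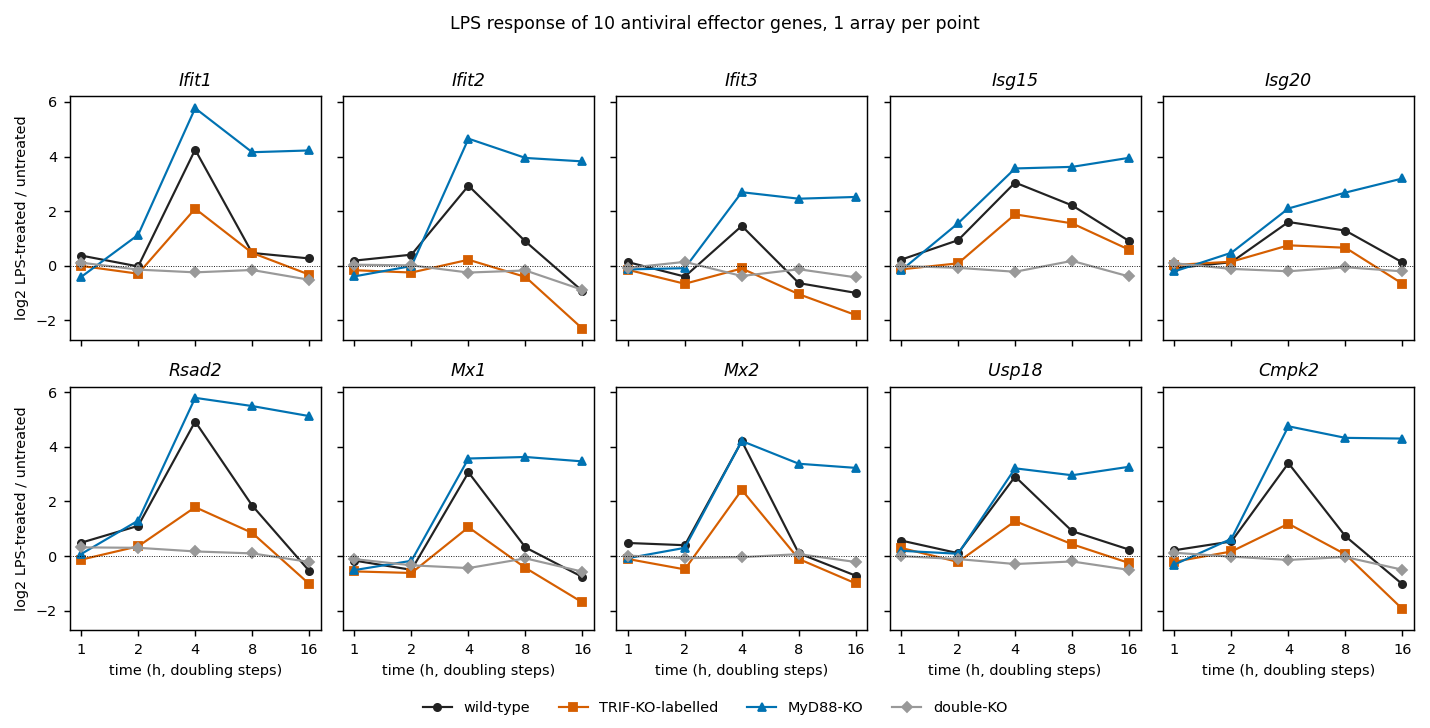
Log2 ratio of LPS-treated over untreated RNA (y axis) against time in hours (x axis, doubling steps) for the 10 genes, with 1 array per point and 1 line per genotype. The MyD88-KO line stays between 2.10 and 5.80 from 4 h on for every gene, the wild-type line is highest at 4 h for every gene, and the double-KO line stays between -0.89 and 0.32.

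Ifit1, Ifit2 and Ifit3 make proteins of a family with members that bind viral RNA and block its translation, and their genes lie close together on chromosome 19. Ifit1 (probe at chr19:34723796-34723855, mm9, plus strand) had log2 ratios of 0.37, -0.03, 4.25, 0.46 and 0.26 at 1, 2, 4, 8 and 16 h in wild-type cells. Its ratios in MyD88-KO cells were -0.42, 1.13, 5.77, 4.16 and 4.22 at the same times. TRIF-KO-labelled cells gave -0.01, -0.30, 2.09, 0.47 and -0.33 for Ifit1. The 4 h wild-type array thus stood alone above the other 4, which did not pass 0.46, while the MyD88-KO arrays of 4 h and later all lay near or above that single wild-type peak. Ifit2 (chr19:34650244-34650303, plus strand) read 0.18, 0.40, 2.93, 0.88 and -0.94 in wild-type cells. In MyD88-KO cells Ifit2 read -0.40, -0.02, 4.65, 3.95 and 3.82. Its TRIF-KO-labelled ratios were -0.17, -0.25, 0.22, -0.42 and -2.31, with no array above 0.22 and the 16 h array far below the others. Ifit3 (chr19:34663105-34663164, plus strand) showed the smallest wild-type peak of the 10 genes, with 0.13, -0.40, 1.46, -0.64 and -1.0. In TRIF-KO-labelled cells Ifit3 was below 0 at all 5 times, at -0.15, -0.67, -0.11, -1.05 and -1.81. In MyD88-KO cells it read -0.14, -0.10, 2.69, 2.45 and 2.52, so its 3 late arrays lay above every other Ifit3 value. The double-KO ratios ranged from -0.52 to 0.11 for Ifit1, -0.89 to 0.03 for Ifit2 and -0.43 to 0.14 for Ifit3. Ifit3 has a near-identical neighbour, Ifit3b, whose probe gave wild-type ratios of 1.31 at 4 h and -2.63 at 16 h and MyD88-KO ratios of 2.92 and 2.61, so signal from one may reach the probe of the other and the values of Ifit3 are uncertain to that extent.

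Isg15 is a ubiquitin-like protein that is attached to viral and host proteins, and Usp18 is the protease that removes it and also blocks signalling at the interferon receptor. Isg15 (chr4:155573649-155573708, minus strand) was the gene with the longest wild-type response, at 0.22, 0.93, 3.05, 2.21 and 0.90. TRIF-KO-labelled cells gave Isg15 ratios of -0.14, 0.08, 1.88, 1.55 and 0.58, the highest of the 10 genes there at 8 and 16 h. In MyD88-KO cells Isg15 read -0.18, 1.55, 3.56, 3.62 and 3.95. Isg15 was therefore above its untreated level at 16 h in all genotypes except double-KO, where its 5 ratios lay between -0.40 and 0.17. Usp18 (chr6:121220874-121220933, plus strand) read 0.57, 0.10, 2.91, 0.91 and 0.24 in wild-type cells. Its MyD88-KO ratios were 0.19, 0.08, 3.22, 2.96 and 3.27. In TRIF-KO-labelled cells Usp18 read 0.30, -0.22, 1.28, 0.43 and -0.26, and in double-KO cells -0.51 to -0.01. Only the 4 h array stood out for Usp18 in wild-type cells, while 3 MyD88-KO arrays did.

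Isg20 is an exonuclease that degrades viral RNA, Rsad2 encodes viperin, which makes a nucleotide analogue that stops viral polymerases, and Cmpk2 is a mitochondrial nucleotide kinase whose gene is the neighbour of Rsad2. Rsad2 (chr12:27127859-27127918, minus strand) had the largest ratio of the 10 genes at 4 h in wild-type cells, where it read 0.49, 1.11, 4.93, 1.85 and -0.54. In MyD88-KO cells Rsad2 read 0.07, 1.30, 5.80, 5.50 and 5.13, the largest values of any of the 10 genes at 4, 8 and 16 h. Its TRIF-KO-labelled ratios were -0.13, 0.36, 1.79, 0.85 and -1.02, and its double-KO ratios lay between -0.22 and 0.32. Rsad2 was thus below its untreated control at 16 h in wild-type, TRIF-KO-labelled and double-KO cells, and not in MyD88-KO cells. Cmpk2 (chr12:27164119-27164178, plus strand) gave 0.21, 0.53, 3.40, 0.73 and -1.04 in wild-type cells. MyD88-KO cells gave -0.31, 0.63, 4.76, 4.33 and 4.31 for Cmpk2. TRIF-KO-labelled cells gave -0.21, 0.17, 1.18, 0.06 and -1.94, and double-KO cells -0.50 to 0.12. Cmpk2 had the lowest wild-type ratio of the 10 genes at 16 h, just below that of Ifit3. Isg20 (chr7:86065136-86065195, plus strand) read -0.10, 0.13, 1.60, 1.28 and 0.12 in wild-type cells. In MyD88-KO cells Isg20 went on to its highest value at 16 h, with -0.21, 0.47, 2.10, 2.68 and 3.19. In TRIF-KO-labelled cells it read 0.02, 0.14, 0.74, 0.66 and -0.66, and in double-KO cells -0.21 to 0.09. The MyD88-KO ratio of Usp18 was also highest at 16 h. For Isg15 that order cannot be read from the tested probe, whose 4 h spot was saturated, and its second probe read 3.15 at both 8 and 16 h.

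Mx1 and Mx2 make dynamin-like GTPases that trap viral nucleoproteins, and laboratory strains such as C57BL/6 carry alleles that make no working protein, so here their RNA is only a reporter of the interferon response. Mx1 (chr16:97668644-97668703, minus strand) read -0.17, -0.51, 3.07, 0.31 and -0.77 in wild-type cells. Its MyD88-KO ratios were -0.52, -0.17, 3.58, 3.63 and 3.47. In TRIF-KO-labelled cells Mx1 read -0.56, -0.62, 1.06, -0.44 and -1.70. Mx1 was below 0 at 1 and 2 h in all 4 genotypes, which no other member shared. Mx2 (chr16:97782327-97782386, plus strand) read 0.48, 0.40, 4.21, 0.10 and -0.72 in wild-type cells and was the gene whose 4 h ratios in wild-type and MyD88-KO cells lay closest, 0.01 apart. In MyD88-KO cells Mx2 read -0.08, 0.30, 4.22, 3.38 and 3.23. TRIF-KO-labelled cells gave -0.11, -0.49, 2.42, -0.11 and -1.01 for Mx2, the largest 4 h value of the 10 genes in that genotype. Double-KO ratios lay between -0.57 and -0.09 for Mx1 and between -0.22 and 0.07 for Mx2.

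Averaged over the 5 time points, with limma's moderated test over all arrays and the time point as a block, all 10 genes rose with LPS in MyD88-KO cells, against 16.8% of all genes tested. The mean log2 ratio in MyD88-KO cells was 3.56 ± 0.62 (SE) for Rsad2 (adjusted p = 0.00144), 2.97 ± 0.53 for Ifit1 (0.00167) and 2.50 ± 0.35 for Isg15 (0.000459), and the median over the 10 genes was 2.31 against 0.00 over all genes. In wild-type cells 1 of 10 rose, Isg15 at 1.46 ± 0.35 (adjusted p = 0.00605), where 16.7% of all genes did, and 3 of 10 had an unadjusted p under 0.05. The wild-type median was 0.83, with 9 of 10 estimates above 0, and Rsad2 at 1.57 ± 0.62 missed the threshold (adjusted p = 0.0599). With 1 array per genotype and time, the spread in this test includes how the time courses differ between genotypes. A rise at a single time adds to that spread, and at 4 h all 10 wild-type ratios were above 0 (median 3.06). In TRIF-KO-labelled cells 0 of 10 rose by limma's test (1 at an unadjusted p under 0.05), where 12.8% of all genes did. In double-KO cells 0 of 10 rose (0 at an unadjusted p under 0.05), where 0.373% of all genes did. The wild-type count became 3 without the MyD88-KO array of 1 or of 16 h or the double-KO array of 4 h, and 2 without the wild-type array of 16 h or the MyD88-KO array of 2 h. The TRIF-KO-labelled count became 1 without the MyD88-KO array of 1 h. The MyD88-KO count of 10 became 6 with the slide as a fixed block, 1 with a term for the dye and 0 in a fit of only that genotype's arrays, and the wild-type count became 0 under each of the same 3 changes. The dye term rests on the MyD88-KO array of 2 h, the only array with its dyes swapped. With scan day as a block, which rests on the MyD88-KO arrays because no other genotype was scanned on both days, 10 genes were called in wild-type and 7 in TRIF-KO-labelled cells. The MyD88-KO arrays of day 1 are those of 1 and 2 h and those of day 2 are the later ones. The day term therefore cannot be told apart from the late rise of the MyD88-KO ratio, and these counts do not measure the response of the other genotypes.

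Against the double-KO cells, whose arrays serve as the control of all 3 comparisons, 6 of 10 genes had a larger mean response in MyD88-KO cells, where 5.73% of all genes did. The largest difference was that of Rsad2, at 3.43 ± 0.87 (SE, log2, adjusted p = 0.0321), and MyD88-KO exceeded double-KO at 4 of 5 times. Usp18 differed by 2.17 ± 0.53 (adjusted p = 0.0277) and was the gene with a higher MyD88-KO ratio at all 5 times. Isg20 differed by 1.75 ± 0.47 (0.0371) and Cmpk2 by 2.86 ± 0.81 (0.0432), and Ifit1 and Isg15 also passed. Ifit2 at 2.66 (adjusted p = 0.0501), Mx2 at 2.26 (0.0521), Mx1 at 2.31 (0.0526) and Ifit3 at 1.66 (0.0656) lay just past the threshold. Within scan day 2, which holds the MyD88-KO arrays of 4, 8 and 16 h and their double-KO counterparts, the MyD88-KO ratio was higher at all 3 times for 10 of 10 genes, by 2.82 to 5.46 (median 3.89). The count of 6 became 0 without the time point as a block, 0 with the slide as a fixed block and 10 with scan day as a block, and it depended on single arrays. It was 10 without the MyD88-KO array of 1 or 2 h, 1 without that of 4, 8 or 16 h, 0 without the double-KO array of 4 or 8 h, and 1 without that of 16 h. In the wild-type minus double-KO comparison 0 of 10 passed limma's test, where 5.94% of all genes did, and 2 of 10 had an unadjusted p under 0.05; Isg15 was nearest at 1.57 ± 0.50 (adjusted p = 0.0536). That count became 1 without the wild-type array of 16 h, the MyD88-KO array of 1 or 16 h or the double-KO array of 1 h. For TRIF-KO-labelled cells 0 of 10 passed (0 at an unadjusted p under 0.05), where 3.58% of all genes did, and the estimates ran from -0.58 to 0.90. With scan day as a block 10 genes passed for wild-type and 8 for TRIF-KO-labelled cells. These counts and the count of 10 for MyD88-KO cells carry the limit of the day term given above.

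Between the 3 responding genotypes, limma called no gene of the whole array in any mean response (0% each for MyD88-KO minus wild-type, MyD88-KO minus TRIF-KO-labelled and wild-type minus TRIF-KO-labelled), so 0 of 10 passed there. Unadjusted p-values under 0.05 were reached by 6, 10 and 0 of the 10 genes in that order. The MyD88-KO mean exceeded the wild-type mean by 1.00 to 1.99 on the log2 scale and the TRIF-KO-labelled mean by 1.46 to 3.19, with all 10 estimates above 0 in both. Without the MyD88-KO array of 1 h the counts became 1 and 10. The time course shows where the difference between MyD88-KO and wild-type cells lay: its median over the 10 genes was -0.41 at 1 h, 0.25 at 2 h, 0.69 at 4 h, 3.19 at 8 h and 3.96 at 16 h. At 8 and 16 h the smallest of the 10 differences was 1.39 and 3.04, so all 10 genes were higher in MyD88-KO cells at both times. Those late MyD88-KO arrays were scanned on day 2 and the wild-type arrays on day 1, so scan day and genotype cannot be told apart for them, while at 1 and 2 h, scanned on day 1 for both, the mean difference ran from -0.50 to 0.19. Wild-type minus TRIF-KO-labelled lies wholly within day 1: the wild-type mean ratio was higher for 10 of 10 genes, by 0.43 to 1.28, and 8 of 10 genes were higher in wild-type cells at all 5 times.

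The change of the response with time was tested as a slope of the log2 ratio per doubling of the hours. In MyD88-KO cells 7 of 10 genes had a slope above 0, where 5.52% of all genes did, with Isg20 at 0.90 ± 0.16 (SE, adjusted p = 0.00374), Isg15 at 1.03 ± 0.25 (0.0186) and Ifit3 at 0.79 ± 0.21 (0.0299). Ifit1, Rsad2 and Mx2 did not pass. In wild-type, TRIF-KO-labelled and double-KO cells 0 of 10 slopes passed limma's test, where 2.92%, 3.31% and 0% of all genes did, and no member reached an unadjusted p under 0.05. A peak at 4 h followed by a return is not described by a straight slope, so these values carry little about the wild-type course. Nor was the MyD88-KO course a steady rise: its median ratio was 0.39 at 2 h and 3.90, 3.63 and 3.65 at 4, 8 and 16 h. From 4 to 16 h the MyD88-KO ratio was higher for 3 of 10 genes (median -0.31). Its step came between the dye-swapped 2 h array of scan day 1 and the 4 h array of day 2. Time, scan day and dye order cannot be told apart there. The count of 7 became 0 without the MyD88-KO array of 1 h, 2 without that of 2 or 8 h, 4 without the TRIF-KO-labelled array of 2 h and 3 without any single double-KO array. The slope in MyD88-KO cells exceeded that in TRIF-KO-labelled cells for 2 of 10 genes (2.49% of all genes), Isg20 by 0.99 ± 0.23 (adjusted p = 0.0312) and Ifit3 by 1.16 ± 0.30 (0.0456). It exceeded that in wild-type cells for 0 of 10 (0.66%; 8 at an unadjusted p under 0.05) and that in double-KO cells for 0 of 10 (1.16%; 9). With the time point as a block these 3 counts became 7, 6 and 8. With the slide as a fixed block the MyD88-KO count of 7 and its excess over TRIF-KO-labelled cells both became 0. Leaving out single arrays moved the count against TRIF-KO-labelled cells to 5 without the wild-type array of 4 h, to 0 without the TRIF-KO-labelled array of 2 or 16 h or the MyD88-KO array of 1, 2 or 8 h, and to 1 without any of the wild-type arrays of 1, 2 and 8 h, the TRIF-KO-labelled arrays of 1 and 8 h or the double-KO arrays. The count against wild-type cells became 1 without the wild-type array of 4 h, and that against double-KO cells became 1 without the wild-type array of 4, 8 or 16 h or the TRIF-KO-labelled array of 8 or 16 h.

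A ratio depends on both of its channels, so the level in untreated cells was read next, on a log2 scale after normalization between arrays. The untreated level of all 10 genes was higher in wild-type and TRIF-KO-labelled cells than in double-KO cells, and without any LPS it was higher at 8 h than at 4 h for at least 9 of the 10 genes in every genotype. Rsad2 read 15.15, 14.96, 14.06, 16.51 and 17.27 at 1, 2, 4, 8 and 16 h in untreated wild-type cells. TRIF-KO-labelled cells gave 15.55, 15.11, 14.87, 17.18 and 17.65 for Rsad2. In MyD88-KO cells the untreated Rsad2 level was 14.03, 13.88, 12.83, 13.07 and 13.62, and in double-KO cells 13.09, 13.01, 12.74, 13.95 and 13.74. The lowest wild-type and TRIF-KO-labelled values were thus above the highest of MyD88-KO and double-KO cells, and the latter pair overlapped. Ifit1 read 14.41, 14.61, 13.52, 15.84 and 15.36 in untreated wild-type cells. Its TRIF-KO-labelled levels were 14.61, 14.19, 13.46, 15.98 and 15.78. In MyD88-KO cells Ifit1 read 13.46, 12.60, 12.02, 13.38 and 13.13, and in double-KO cells 12.44, 12.40, 12.42, 13.70 and 13.20. All wild-type Ifit1 values except that of 4 h lay above every double-KO value. The MyD88-KO array of 2 h had its dyes swapped, so its levels are given here but were not used in tests of levels.

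**Figure D3:**
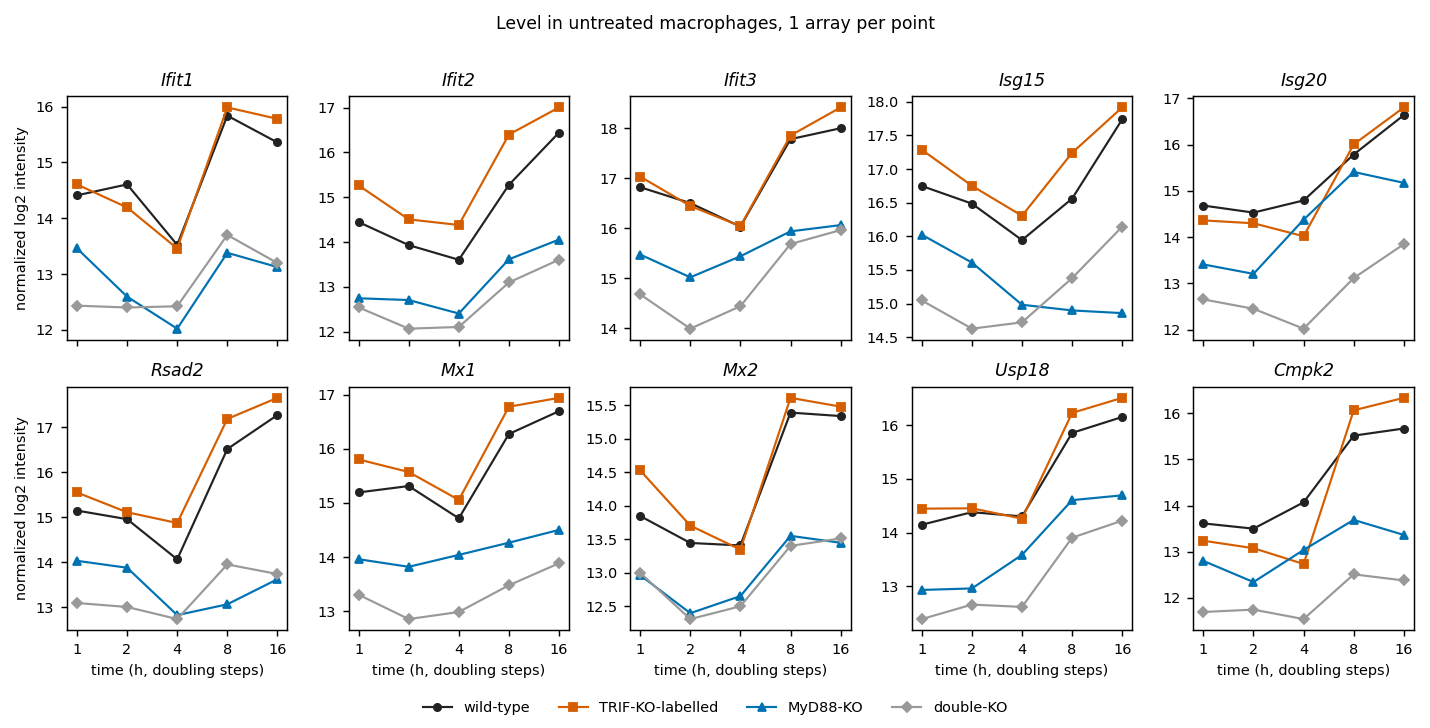
Normalized log2 intensity in untreated macrophages (y axis, a separate range for each gene) against time in hours (x axis, doubling steps) for the 10 genes, with 1 array per point and 1 line per genotype. For most genes the wild-type and TRIF-KO-labelled lines run above the MyD88-KO and double-KO lines at every time, and from 4 h to 8 h the wild-type level is higher by a median of 1.62.

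Untreated Ifit2 read 14.45, 13.93, 13.60, 15.28 and 16.44 in wild-type cells. Ifit2 was still higher in TRIF-KO-labelled cells, at 15.26, 14.51, 14.38, 16.40 and 17.00. Its MyD88-KO levels were 12.74, 12.71, 12.40, 13.61 and 14.05, near the double-KO levels of 12.54, 12.07, 12.10, 13.10 and 13.61. Every TRIF-KO-labelled Ifit2 value lay above the wild-type value of the same time, and the MyD88-KO and double-KO ranges overlapped. Ifit3 read 16.82, 16.51, 16.04, 17.78 and 18.00 in untreated wild-type cells. TRIF-KO-labelled cells read 17.04, 16.45, 16.04, 17.86 and 18.42 for Ifit3. MyD88-KO cells read 15.48, 15.02, 15.44, 15.94 and 16.07 and double-KO cells 14.68, 13.99, 14.44, 15.69 and 15.97. At each time Ifit3 was lowest in double-KO and next lowest in MyD88-KO cells. Wild-type cells were above TRIF-KO-labelled cells at 2 h only, and both read 16.04 at 4 h. Usp18 read 14.15, 14.38, 14.30, 15.86 and 16.15 in wild-type cells. Its TRIF-KO-labelled levels were 14.45, 14.45, 14.26, 16.23 and 16.51. In MyD88-KO cells Usp18 read 12.93, 12.96, 13.58, 14.60 and 14.69, and in double-KO cells 12.39, 12.66, 12.61, 13.90 and 14.22. Usp18 thus had its late untreated levels above its early ones in all 4 genotypes.

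Untreated Isg15 read 16.75, 16.49, 15.94, 16.56 and 17.74 in wild-type cells. TRIF-KO-labelled cells gave 17.29, 16.75, 16.31, 17.24 and 17.92 for it. Isg15 in MyD88-KO cells read 16.02, 15.61, 14.98, 14.90 and 14.86, and in double-KO cells 15.05, 14.63, 14.72, 15.38 and 16.14. This probe of Isg15 was the only one of the 10 tested whose MyD88-KO level was lower at 16 h than at 1 h by more than 1 log2 unit. The second Isg15 probe went the other way there, from 13.29 at 1 h to 14.90 at 16 h, so the direction depends on the probe. Untreated wild-type cells read 14.68, 14.53, 14.80, 15.79 and 16.64 for Isg20. Isg20 in MyD88-KO cells read 13.41, 13.21, 14.38, 15.41 and 15.18, above the double-KO levels of 12.66, 12.45, 12.02, 13.12 and 13.85 at every time. Its TRIF-KO-labelled levels were 14.36, 14.30, 14.02, 16.01 and 16.81. At 4 and 8 h the untreated MyD88-KO values of Isg20 were nearer to wild-type than to double-KO cells. Cmpk2 read 13.61, 13.50, 14.07, 15.52 and 15.67 in wild-type cells. Its MyD88-KO levels were 12.80, 12.34, 13.04, 13.69 and 13.36. TRIF-KO-labelled cells read 13.24, 13.08, 12.73, 16.07 and 16.34 for Cmpk2, and double-KO cells 11.69, 11.74, 11.54, 12.51 and 12.38. Between 4 and 8 h untreated Cmpk2 was higher by 3.33 log2 units in TRIF-KO-labelled cells, the largest such step of the 10 tested probes in any genotype; the second Cmpk2 probe read 13.94 and 15.90 there.

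Untreated Mx1 read 15.19, 15.31, 14.72, 16.27 and 16.69 in wild-type cells. In TRIF-KO-labelled cells Mx1 read 15.80, 15.57, 15.06, 16.78 and 16.94. MyD88-KO cells gave 13.96, 13.82, 14.04, 14.27 and 14.50 and double-KO cells 13.31, 12.86, 12.99, 13.48 and 13.89. The 4 genotypes kept 1 order for Mx1 at all 5 times, from TRIF-KO-labelled down to wild-type, MyD88-KO and double-KO. Mx2 read 13.85, 13.45, 13.41, 15.39 and 15.34 in untreated wild-type cells. Its TRIF-KO-labelled levels were 14.53, 13.71, 13.35, 15.61 and 15.48. MyD88-KO cells read 12.97, 12.40, 12.66, 13.55 and 13.45 and double-KO cells 13.00, 12.31, 12.50, 13.41 and 13.52, values that interleave.

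In limma's test with the time point as a block, over the 19 arrays with treated RNA in Cy5, all 10 genes were higher in untreated wild-type than double-KO cells, where 10.6% of all genes were. The differences ran from 1.34 ± 0.19 (SE, log2) for Mx2 (adjusted p = 0.000154) to 2.50 ± 0.38 for Cmpk2 (0.000279), and each gene was higher at 5 of 5 times. All 10 were also higher in TRIF-KO-labelled than double-KO cells, where 9.71% of all genes were, by 1.59 ± 0.19 (Mx2) to 2.83 ± 0.17 (Ifit2, adjusted p = 3.86e-08). With the slide as a fixed block 5 and 6 genes were still called in these comparisons, in both of which scan day cannot be told apart from genotype. MyD88-KO cells exceeded double-KO cells for 3 of 10 genes (3.85% of all genes): Isg20 by 1.62 ± 0.25 (adjusted p = 0.000889), Mx1 by 0.79 ± 0.21 (0.0326) and Usp18 by 0.64 ± 0.13 (0.00701). Rsad2, Isg15, Ifit1 and Mx2 differed there by -0.09 to 0.07. Without the time point as a block that count was 0. Wild-type cells exceeded MyD88-KO cells for all 10 genes (3.66% of all genes), from 0.85 ± 0.25 for Isg20 (adjusted p = 0.0465) to 2.36 ± 0.39 for Rsad2 (0.00239). TRIF-KO-labelled cells exceeded MyD88-KO cells for 8 of 10 (3.9%), with Isg20 at 0.67 (adjusted p = 0.118) and Cmpk2 at 1.27 (0.0703) not passing. The second Isg20 probe did pass there, at 1.39 (adjusted p = 0.00297). These last tests were added after the values were seen, and without the block their counts became 0 and 3, while with the slide as a fixed block wild-type minus MyD88-KO was called for 6. Within scan day 1 the single time point of 1 h put MyD88-KO below wild-type cells for 10 of 10 genes, by a median of 1.17 on the log2 scale.

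The change of the untreated level with time was uneven, since the step came between 4 and 8 h. From 4 to 8 h the median over the 10 genes was higher by 1.62 in wild-type and by 2.00 in TRIF-KO-labelled cells, with 10 of 10 genes higher in both. It was higher by 1.04 in double-KO cells (10 of 10 genes) and by 0.78 in MyD88-KO cells (9 of 10). Over all genes the same median lay between -0.06 and 0.02, and the share of genes higher by at least 1 log2 unit was 3.93% for TRIF-KO-labelled, 1.49% for wild-type, 0.724% for double-KO and 0.624% for MyD88-KO cells. The step compares 1 array with another, so it has no replicate check. As a slope per doubling of the hours, limma called Usp18 in wild-type cells at 0.55 ± 0.14 (adjusted p = 0.0222; 1 of 10 genes against 4.4% of all genes). In TRIF-KO-labelled cells it called Cmpk2 at 0.92 ± 0.19 (adjusted p = 0.00482), Isg20 at 0.66 ± 0.16 (0.0122) and Usp18 at 0.59 ± 0.14 (0.00878), 3 of 10 against 9.38%. In double-KO cells it called Usp18 at 0.49 ± 0.14 (adjusted p = 0.0452; 1 of 10 against 2.55%), and in MyD88-KO cells 0 of 10 (2.46%; 2 at an unadjusted p under 0.05). With the time point as a block the wild-type and TRIF-KO-labelled counts became 0, and with the slide as a fixed block these and the double-KO count became 0. Without single arrays the wild-type count became 0 (wild-type 1, 8 or 16 h), 2 (TRIF-KO-labelled 8 h or double-KO 4 h), 3 (TRIF-KO-labelled 1 h) or 4 (TRIF-KO-labelled 4 h). The TRIF-KO-labelled count became 8, 5 or 0 without the TRIF-KO-labelled array of 1, 4 or 16 h. The MyD88-KO count became 1 without the TRIF-KO-labelled array of 1 or 4 h. The double-KO count became 0 without any of 13 of the 19 arrays, namely wild-type 2, 8 and 16 h, TRIF-KO-labelled 2 and 16 h, MyD88-KO 1, 4, 8 and 16 h and double-KO 1, 2, 8 and 16 h.

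The level in LPS-treated cells does not use the untreated channel. From 2 to 4 h the treated level of all 10 genes was higher in wild-type cells, by a median of 2.83 log2 units, in TRIF-KO-labelled cells, by 1.18, and in MyD88-KO cells, by 3.86, while in double-KO cells the median step was -0.15. The MyD88-KO step starts from the dye-swapped array. Treated Rsad2 read 15.64, 16.06, 18.99, 18.37 and 16.73 at 1, 2, 4, 8 and 16 h in wild-type cells. MyD88-KO cells gave 14.10, 15.18, 18.62, 18.56 and 18.75 for Rsad2. TRIF-KO-labelled cells gave 15.42, 15.47, 16.66, 18.03 and 16.63 and double-KO cells 13.41, 13.31, 12.91, 14.05 and 13.52. The MyD88-KO spots of 4 and 8 h were saturated, so these levels cannot be ranked against the wild-type 4 h level. At 16 h, where no Rsad2 spot was saturated, the wild-type level was lower than its own 4 h level and than the MyD88-KO level. Treated Cmpk2 read 13.83, 14.03, 17.48, 16.24 and 14.64 in wild-type cells. In MyD88-KO cells it read 12.49, 12.97, 17.80, 18.02 and 17.67. In TRIF-KO-labelled cells Cmpk2 read 13.03, 13.24, 13.92, 16.13 and 14.40, and in double-KO cells 11.81, 11.72, 11.40, 12.47 and 11.87. The TRIF-KO-labelled Cmpk2 course had its peak at 8 h, when its untreated control was just as high. Treated Isg20 read 14.59, 14.66, 16.39, 17.07 and 16.76 in wild-type cells. In MyD88-KO cells Isg20 read 13.20, 13.68, 16.48, 18.09 and 18.37. TRIF-KO-labelled cells gave 14.39, 14.44, 14.77, 16.66 and 16.14 and double-KO cells 12.74, 12.33, 11.81, 13.06 and 13.64. The treated wild-type level of Isg20 was thus highest at 8 h and not at 4 h, with either probe.

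**Figure D4:**
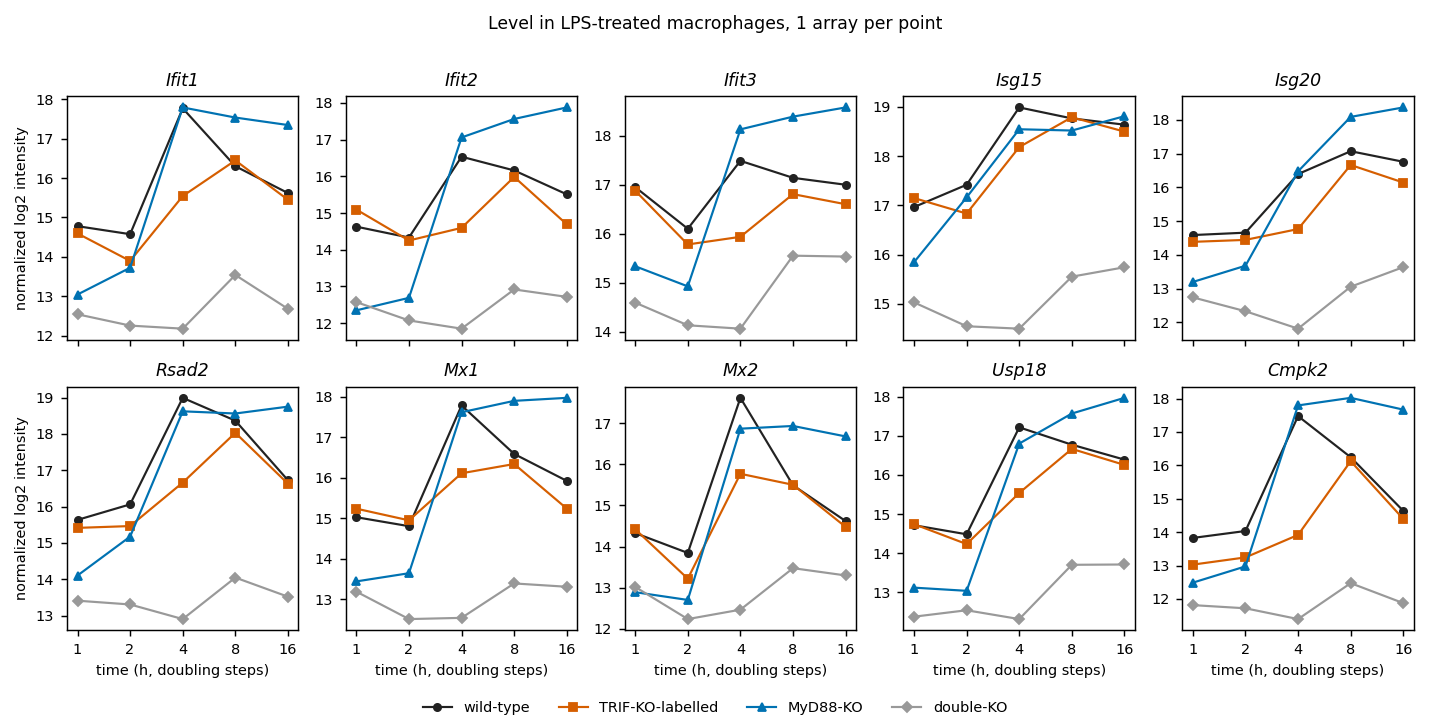
Normalized log2 intensity in LPS-treated macrophages (y axis, a separate range for each gene) against time in hours (x axis, doubling steps) for the 10 genes, with 1 array per point and 1 line per genotype. At 4 h the measured MyD88-KO minus wild-type difference lies between -0.75 and 0.64, with saturated spots for Isg15 and Rsad2, and at 16 h the MyD88-KO point is the higher for all 10 genes, by a median of 1.88.

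Treated Ifit1 read 14.78, 14.58, 17.77, 16.30 and 15.62 in wild-type cells. Ifit1 in MyD88-KO cells read 13.04, 13.72, 17.79, 17.54 and 17.35. For Ifit1 both genotypes met at 4 h, and only the MyD88-KO level stayed near its peak afterwards. Treated Isg15 read 16.97, 17.42, 18.99, 18.77 and 18.64 in wild-type cells. Isg15 in MyD88-KO cells read 15.85, 17.16, 18.55, 18.52 and 18.81. Isg15 in TRIF-KO-labelled cells read 17.15, 16.83, 18.18, 18.79 and 18.50. Since 3 of these spots were saturated, the genotypes cannot be ranked by this probe at 4 and 8 h. The second Isg15 probe, not saturated, read 17.13, 17.57 and 17.21 at 4, 8 and 16 h in wild-type cells. In MyD88-KO cells it read 17.23, 18.14 and 18.05, and in TRIF-KO-labelled cells 16.16, 17.09 and 16.76. By that probe MyD88-KO cells were the highest and TRIF-KO-labelled cells the lowest of these 3 genotypes at each of these times. The wild-type level was highest at 8 h. Set side by side over the 10 genes, MyD88-KO minus wild-type had a median of -1.56 at 1 h, -1.10 at 2 h, -0.07 at 4 h, 1.24 at 8 h and 1.88 at 16 h in treated cells. The number of genes higher in MyD88-KO cells was 0, 0, 5, 9 and 10 at those times, with the saturated Isg15 and Rsad2 spots taken at their measured values. In untreated cells the same median was -1.17, -1.28, -0.86, -1.83 and -2.21. The larger late ratio of MyD88-KO cells thus contained both a higher treated and a lower untreated level. Those levels at 4, 8 and 16 h compare MyD88-KO arrays of scan day 2 with wild-type arrays of day 1. Scan day and genotype cannot be told apart for them. From 4 to 16 h the treated level of wild-type cells was lower for 9 of 10 tested probes, with a median of -1.44 (the second Isg15 probe was not lower), and their untreated level was higher for 10 of 10, with a median of 1.89. In TRIF-KO-labelled cells the corresponding medians were 0.21 and 2.35, so there the lower ratio after 4 h lay mainly in the untreated channel.

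Averaged over the times, the treated level of all 10 genes was higher than in double-KO cells in each of the other genotypes by limma's test. Wild-type minus double-KO ran from 2.16 ± 0.44 for Ifit3 (adjusted p = 0.00315) to 3.72 ± 0.58 for Rsad2 (0.000683), where 12.1% of all genes were higher. MyD88-KO minus double-KO ran from 2.66 ± 0.63 for Mx2 (adjusted p = 0.0114) to 4.45 ± 0.75 for Cmpk2 (0.00202), where 8.59% of all genes were higher. Within scan day 2 that difference was 3.32 to 5.92, above 0 at all 3 times for 10 of 10 genes. TRIF-KO-labelled minus double-KO ran from 1.63 ± 0.44 for Ifit3 (adjusted p = 0.0168) to 3.00 ± 0.58 for Rsad2 (0.003), where 9.38% of all genes were higher. That count of 10 became 3 without the time point as a block and 6 without the TRIF-KO-labelled array of 1 h or the double-KO array of 4 h. With the slide as a fixed block the counts became 0 for wild-type, 1 for MyD88-KO and 0 for TRIF-KO-labelled cells, each minus double-KO. The difference in treated level between TRIF-KO-labelled and double-KO cells, with a median of 2.55, was close to the difference in their untreated levels, with a median of 2.24.

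**Figure D5:**
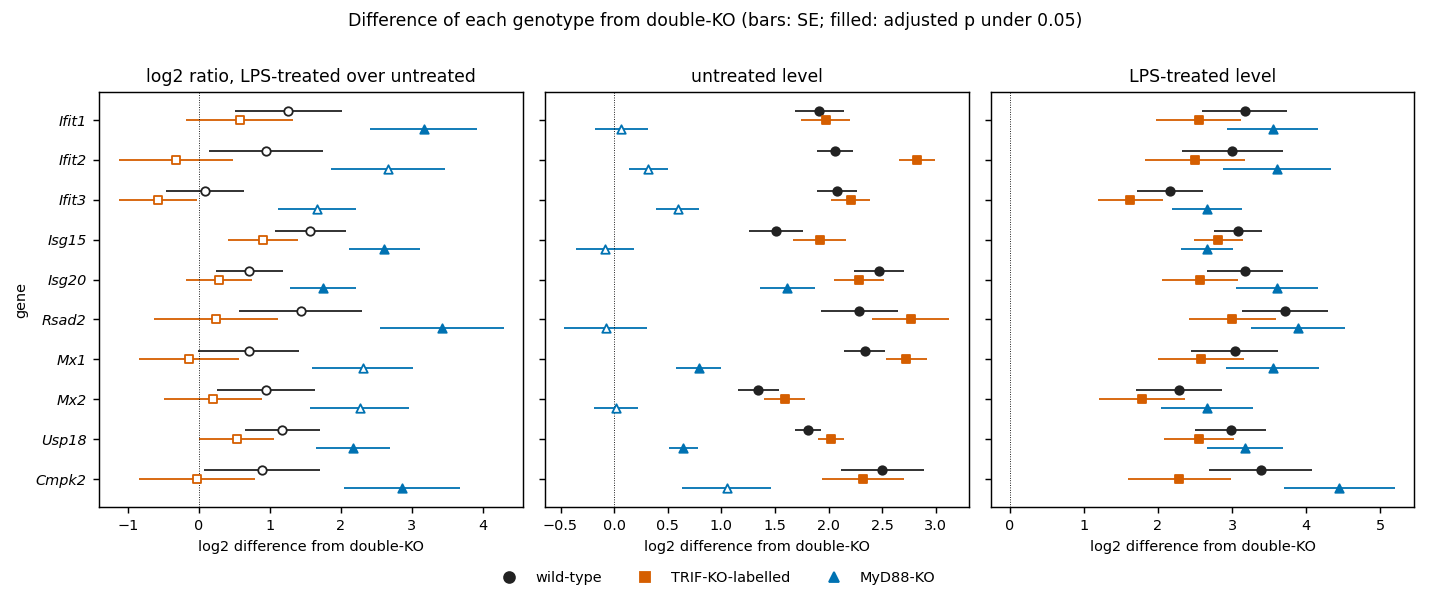
Difference of each genotype from double-KO cells (x axis, log2) for the 10 genes (y axis) in the LPS response, the untreated level and the LPS-treated level. Points are limma estimates, bars are SE and filled points have an adjusted p under 0.05: in the response 6 MyD88-KO points are filled, in the untreated level all wild-type and TRIF-KO-labelled points and 3 MyD88-KO points, and in the LPS-treated level every point.

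Isg15, Isg20 and Cmpk2 each have a second probe. Its log2 ratio differed from that of the first by at most 0.80, 1.02 and 0.62 on any array, and had the same sign on 19, 16 and 16 of 20 arrays. The largest gap was that of Isg20 in MyD88-KO cells at 8 h, with 2.68 by the tested and 3.69 by the second probe. The MyD88-KO minus double-KO response was 2.24 for the second probe of Isg15 against 2.61 for the first, 2.28 against 1.75 for Isg20 and 2.75 against 2.86 for Cmpk2. Levels disagreed more. In untreated cells the second Isg15 probe put MyD88-KO above double-KO cells by 2.00 (adjusted p = 8.16e-05), where the first gave -0.09 (0.91). The second Cmpk2 probe put them apart by 3.33 (adjusted p = 0.000719), where the first gave 1.05 (0.156). For wild-type minus MyD88-KO the second Cmpk2 probe gave 0.57 (adjusted p = 0.485), where the first gave 1.45 (0.0399). Among the slopes of the response, Cmpk2 in MyD88-KO cells (1.08, adjusted p = 0.0983, against 1.29, 0.0424) and Isg20 in MyD88-KO minus TRIF-KO-labelled cells (1.05, 0.137, against 0.99, 0.0312) passed with the first probe and not with the second. Whether MyD88-KO cells at rest differ from double-KO cells in Isg15 and Cmpk2 therefore depends on the probe, while the MyD88-KO response to LPS passed with either probe of all 3 genes.

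The genes around the members were read from lists of the interferon pathway. Of the interferon ligands and receptors 15 of 21 were measured, and 1 rose with LPS in MyD88-KO, 3 in wild-type, 2 in TRIF-KO-labelled and 0 in double-KO cells. Over all genes tested 16.8%, 16.7%, 12.8% and 0.373% rose in that order, so these counts were near or below the background. Ifnb1, the gene of interferon beta, had ratios of 2.07, 5.98, 3.88, -1.90 and -2.10 at 1, 2, 4, 8 and 16 h in wild-type cells. In MyD88-KO cells its ratios were 1.19, 5.36, 6.09, 6.27 and 5.48, and in TRIF-KO-labelled cells 1.06, 2.47, 2.84, 0.14 and -2.40. Ifnb1 was thus already high at 2 h, when most of the 10 genes were not, and in MyD88-KO cells stayed high to 16 h as they did. In untreated wild-type cells Ifnb1 was at 7.50 at 1 h and 11.24 at 16 h. Among the receptors, Ifnar1 rose by 0.75 (adjusted p = 0.00343) and Ifnar2 by 0.60 (0.00072) in wild-type cells. Of 14 signalling genes and transcription factors, 9 rose in MyD88-KO cells. In wild-type cells 4 of them rose, in TRIF-KO-labelled cells 4 rose and 1 fell, and in double-KO cells 0 changed. The shares over all genes are those just given. In MyD88-KO cells Irf7, the factor that amplifies interferon production, rose by 1.34 (adjusted p = 0.00872) and Stat2 by 0.86 (0.00994). Irf9 at 0.20 (adjusted p = 0.0792) did not pass, and Irf3, which is switched on by phosphorylation, was at -0.05.

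A list of 9 genes held restraints of the pathway such as Socs1, and also Uba7, Ube2l6 and Herc6, enzymes that attach Isg15 to proteins. Of these 9 genes, 6 rose in MyD88-KO, 5 in wild-type, 3 in TRIF-KO-labelled and 0 in double-KO cells. Over all genes 16.8%, 16.7%, 12.8% and 0.373% rose in that order. The counts do not separate the restraints from the enzymes. Socs1, which blocks the receptor kinases, rose by 1.89 in MyD88-KO (adjusted p = 0.00162) and by 1.17 in wild-type cells (0.0148). Of 30 other interferon-induced genes 29 were measured, and 29 rose in MyD88-KO, 5 in wild-type, 0 in TRIF-KO-labelled (where 2 fell) and 0 in double-KO cells. Against the same shares of all genes, the wild-type count was near the background. Their MyD88-KO minus double-KO response passed for 23 of 29, where 5.73% of all genes did, with a median of 1.40 against -0.02 over all genes. In untreated cells 28 of 29 were higher in wild-type than double-KO cells, where 10.6% of all genes were, with Irf7 of the signalling list higher by 2.59 and Stat2 by 1.26. Of 10 NF-kB response genes set beside them 9 were also higher in untreated wild-type than double-KO cells, against the same 10.6% of all genes. Their median difference was 1.94 against 1.18 for the other interferon-induced genes, so the higher untreated level was not limited to interferon-induced genes. All 10 NF-kB genes rose with LPS in each genotype other than double-KO, where 0 did. Their median log2 ratio was 3.10 in MyD88-KO cells, 4.97 in wild-type cells and 4.95 in cells labelled TRIF-KO. Between 4 and 8 h the untreated level of the other interferon-induced genes was higher for 29 of 29 in wild-type (median 1.04), 29 of 29 in TRIF-KO-labelled (1.27), 27 of 29 in MyD88-KO (0.49) and 29 of 29 in double-KO cells (0.67). That of the NF-kB genes was higher for 3 of 10 in wild-type (median -0.17), 10 of 10 in TRIF-KO-labelled (0.57), 6 of 10 in MyD88-KO (0.17) and 8 of 10 in double-KO cells (0.32).

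The 10 genes followed much the same course over the 20 arrays. The Pearson correlation of each gene's log2 ratio with the mean of the other 9 was 0.992 for Rsad2, 0.99 for Mx1 and 0.988 for Cmpk2 and was lowest for Ifit3 at 0.923 and Isg15 at 0.903. Of 21718 other genes those most like the mean of the 10 were Igtp (0.989), Tgtp2 (0.988), Ifi47 (0.985), Daxx (0.985), Irgm1 (0.982), Dtx3l (0.98), Tor3a (0.98) and Ifi209 (0.98). Igtp, Tgtp2, Ifi47 and Irgm1 encode interferon-induced GTPases. These are descriptions over 20 arrays that share genotypes and time points.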

How the data were processed

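Total RNA of mouse bone marrow derived macrophages was measured on 20 two-colour Agilent arrays. Per the file headers, the scanner text deposited by the authors came from Agilent's Feature Extraction software (version 10.10.1.1) and gives the spot intensity and background intensity of each dye, a log10 ratio of Cy5 over Cy3 and, as other columns, flags for spots above background or saturated; probe coordinates there are of mm9. From these deposited intensities, with R 4.3.3 and limma 3.58.1, the background was corrected by normexp (offset 50) and dyes were normalized by loess within each array. Levels of a channel were set between arrays by Aquantile. The ratio of the MyD88-KO 2 h array, which carries treated RNA in Cy3, was turned, and that array was left out of tests of levels. Probes well above background in a channel on at least 3 arrays were kept, and the brightest kept probe stood for a gene. Adjusted p-values are Benjamini-Hochberg values over all genes tested, with a threshold of 0.05, and 29 comparisons were made, 5 of them added after the values were seen. The fits were checked on simulated data. Columns of other series numbered 0. The number of arrays limits the precision, and a p-value measures only the spread between these samples.

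All 10 genes and each of their probes are named, with the pathway genes Ifnb1, Ifnar1, Ifnar2, Stat2, Irf9, Irf3, Irf7 and Socs1 and the 8 genes most like the mean of the 10. A further gene covered by this rule is not reported here and was left out of the counts of its list. The genes and lists were chosen with earlier results of these data known. Replicate numbers in the labels are time points. Deviations of same-numbered arrays from their genotype means correlated at 0.22 to 0.83 for ratios among the 3 genotypes other than double-KO and at 0.13 to 0.81 for untreated levels between all genotypes, but at -0.19 to 0.13 for ratios in pairs with double-KO. Levels were tested with the time point as a block, since pairing holds there. For ratios the block was part of the design, and the values without it are given where they differ. Files were read with the package data.table, version 1.17.8. Alternatives were other background, normalization, filter and probe choices, the slide or scan day as a block, a dye term, the deposited log10 ratios, the processed signals set to their 75th percentile, and leaving out each array in turn.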

Additional observations from a re-analysis of the deposited data

Results flagged for a closer look

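Of 120 groups of 5 arrays examined (each gene, genotype and quantity), 6 held a value far from the other 4, no more than the 1 in 20 that chance gives. That rate is for repeats of 1 condition, while each group here is 5 time points, and the genes follow much the same course. In wild-type cells these were the 4 h ratios of Ifit1 (4.25), Mx1 (3.07), Mx2 (4.21) and Usp18 (2.91), where the next highest values were 0.46, 0.31, 0.48 and 0.91. In TRIF-KO-labelled cells they were the 4 h ratio of Mx2 (2.42) and the 16 h ratio of Ifit2 (-2.31), where the nearest values were -0.11 and -0.42. With 1 array per time, a peak at 1 time point cannot be told apart from a single array that stands off.

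A difference between genotypes passed limma's test in the MyD88-KO minus double-KO response for Rsad2 (3.43), Ifit1 (3.17), Cmpk2 (2.86), Isg15 (2.61), Usp18 (2.17) and Isg20 (1.75). The slope over log2 time differed between MyD88-KO and TRIF-KO-labelled cells for Ifit3 (1.16) and Isg20 (0.99).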

How the results depend on the processing

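Counts are members called higher, out of 10. With the slide as a fixed block the response counts became 0 (wild-type), 6 (MyD88-KO) and 0 (MyD88-KO minus double-KO), the MyD88-KO slope and its excess over TRIF-KO-labelled 0 and 0, the untreated slopes 0 (wild-type), 0 (TRIF-KO-labelled) and 0 (double-KO), untreated wild-type and TRIF-KO-labelled minus double-KO 5 and 6, untreated wild-type minus MyD88-KO 6, and the treated differences from double-KO 1 (MyD88-KO), 0 (wild-type) and 0 (TRIF-KO-labelled). With scan day as a block the response counts became 10 (wild-type) and 7 (TRIF-KO-labelled) and the differences from double-KO 10, 8 and 10 (MyD88-KO). The day term cannot be told apart from the late rise of the MyD88-KO ratio. With a dye term, wild-type and MyD88-KO responses became 0 and 1 and MyD88-KO minus double-KO 10. With only the groups compared, these 3 were 0, 0 and 0.

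With no replicate block (time point), MyD88-KO minus double-KO became 0 in the response and 0 untreated, untreated wild-type minus MyD88-KO 0, TRIF-KO-labelled minus MyD88-KO 3, and treated TRIF-KO-labelled minus double-KO 3. With the replicate block added to slopes, MyD88-KO exceeded wild-type for 6, TRIF-KO-labelled for 7 and double-KO for 8, and the untreated slopes of wild-type and TRIF-KO-labelled cells became 0 and 0. The block changed no other count of members by over 1.5 times.

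With slide as a random block, MyD88-KO minus double-KO became 1, the MyD88-KO slope 1, its excess over TRIF-KO-labelled 0 and the double-KO untreated slope 0. After scaling of the ratios the MyD88-KO slope was called for 1, its excess over TRIF-KO-labelled for 0 and over double-KO for 1. Without a filter these were 3 and 1 (over TRIF-KO-labelled), and the double-KO untreated slope 0. With time in hours the MyD88-KO slope became 1, its excess over TRIF-KO-labelled 0, and the untreated slopes 5 (wild-type) and 7 (TRIF-KO-labelled). The deposited log ratios gave 0 for the excess over TRIF-KO-labelled. The mean of all probes gave 1 for that excess, 2 for the wild-type untreated slope and 5 for untreated MyD88-KO minus double-KO. The second probes, an alternative chosen after seeing the data, gave 1, 3 and 5. The processed signals gave untreated slopes of 3, 6 and 0 (wild-type, TRIF-KO-labelled, double-KO). With no normalization between arrays these were 0, 1 and 0, and untreated MyD88-KO minus double-KO, wild-type minus MyD88-KO and TRIF-KO-labelled minus MyD88-KO became 1, 1 and 5. The cause of these changes was not tested.

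Single values changed sign under scan day as a block, with the limit of the day term given above. In the wild-type response Ifit3 did (1.39), and in the TRIF-KO-labelled response Ifit2 (1.66) and Cmpk2 (1.98). In TRIF-KO-labelled minus double-KO Ifit2 (4.16), Ifit3 (2.38) and Cmpk2 (4.22) did. Under slide as a fixed block the sign changed for the MyD88-KO slopes of Ifit2 (-0.26) and Ifit3 (-0.061). It also changed for the TRIF-KO-labelled untreated slopes of Usp18 (-0.018) and Cmpk2 (-0.15). Untreated Isg15 in MyD88-KO minus double-KO became 0.96 with the mean of its probes and 2.00 with the second. Single values kept direction and call under other settings in 2551 cases, lost the call in 211 and gained it in 90.

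Leaving out each array in turn gave responses of 1 to 3 (wild-type), 0 to 1 (TRIF-KO-labelled), 7 to 10 (MyD88-KO) and 0 to 0 (double-KO). Differences from double-KO were 0 to 1, 0 to 0 and 0 to 10 (MyD88-KO), MyD88-KO minus wild-type 0 to 1, minus TRIF-KO-labelled 0 to 10, and wild-type minus TRIF-KO-labelled 0 to 0. The MyD88-KO slope ran from 0 to 9, its excess over wild-type, TRIF-KO-labelled and double-KO from 0 to 1, 0 to 5 and 0 to 1, and the other response slopes stayed at 0. Untreated slopes ran from 0 to 4, 0 to 8, 0 to 1 (MyD88-KO) and 0 to 1 (double-KO). Untreated differences from double-KO were 10 to 10, 10 to 10 and 2 to 4, from MyD88-KO 8 to 10 (wild-type) and 8 to 9 (TRIF-KO-labelled), and treated differences 10 to 10, 6 to 10 and 9 to 10. With 1 array per genotype and time, a slide or day block leaves few comparisons within a slide, and saturation limits the highest Isg15 and Rsad2 values.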
